A study of Mus musculus with 6 samples.

Results

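Regulators of the trophectoderm and the keratins of simple epithelia were examined in mouse embryonic stem (ES) cells with altered or missing THAP1. The set was chosen by gene symbol and holds 10 genes of the 19713 in the deposited table: the transcription factor genes Cdx2, Tfap2c, Tfap2a, Gata3, Gata2 and Tead4, and the keratin genes Krt7, Krt8, Krt18 and Krt19. RNA sequencing covered 3 genotypes with 2 libraries each, numbered replicate 1 and replicate 2. KO cells lack THAP1 after deletion of exon 2 of Thap1, C54Y cells are homozygous for the C54Y missense change in THAP1, and WT cells carry unaltered Thap1. All 3 kinds of cells were ES cells derived from C57Bl/6 blastocysts and grew on irradiated embryonic fibroblasts with serum and leukemia inhibitory factor, so every library can hold feeder RNA. The labels do not say whether a genotype was 1 clone, or whether the libraries of a genotype came from separate cultures. What the p-values measure is thus no more than the spread among these libraries, which may be technical.

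The trophectoderm is the outer epithelium of the blastocyst and the source of the placental trophoblast. TEAD4 acts with the co-activator YAP in outer cells of the mouse embryo and is needed there for Cdx2, whose product represses pluripotency genes. GATA3, GATA2 and the AP-2 factors TFAP2A and TFAP2C act in trophoblast beside CDX2, and TFAP2C is also made in pluripotent and germ cells. Keratin filaments are obligate pairs of a type II and a type I protein. In simple epithelia, trophectoderm included, KRT7 and KRT8 are the type II partners and KRT18 and KRT19 the type I partners.

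Values are normalized counts, that is a gene's reads scaled by the size factor of its library (1 factor each). Whole reads recovered from them came to 31774656 to 46772996 per library. The fit across all genes was made on log2 of the normalized count plus 2, with the replicate number as a block, and a gene was called at an adjusted p under 0.05. A log2 fold change on this scale understates the change of a weakly expressed gene. Thap1 had 1975 and 1687 normalized counts in KO libraries and 2253 and 2533 in C54Y libraries, against 433 and 701 in WT libraries. These counts cover the gene as a whole and so check neither alteration. The ES cell markers Pou5f1 and Nanog had at least 32384 and 7539 normalized counts in every library. Of the trophoblast markers, Tpbpa had at most 1.36, Elf5 at most 25.98 and Gcm1 at most 20.9 normalized counts in any library, while Eomes had 158 to 234. Elf5, Ascl2, Esx1 and Hand1 reached at least 10 normalized counts in at least 2 libraries. Fibroblast markers differed between the replicate numbers, with a sum over 20 genes of 3358 to 7843 normalized counts in replicate 1 and 28598 to 34752 in replicate 2.

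KO libraries averaged less mRNA of the 4 simple keratins and of Cdx2 than WT libraries, and more of Tfap2c and Gata2. In the blocked limma fit (Benjamini-Hochberg adjusted), Tfap2c and Gata2 rose and Cdx2 and Krt7 fell in KO. That made 4 of the 10 genes, against 16.3% of the 15287 genes tested. The largest fitted log2 differences were those of Krt8 and Krt18, which correspond to about 11 times less in KO. They were not called (adjusted p = 0.09 and 0.0768 by limma), and their size differed between the replicates. KO held 0.0306 and 0.0294 of the WT level in replicate 1 and 0.285 and 0.269 in replicate 2. In C54Y, 0 of the 10 genes were called by limma, against 1.36% of the genes tested. An unadjusted p under 0.05 was reached by 4 of them in C54Y, against 12.3% of the genes tested, and the blocked edgeR and DESeq2 fits called 0. All 10 genes passed the filter on low values (10 normalized counts in at least 2 libraries). Without the replicate block limma and edgeR called 0 of the 10 in KO, and DESeq2 called 1, Krt8. With the block edgeR called 2 and DESeq2 6.

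**Figure D1:**
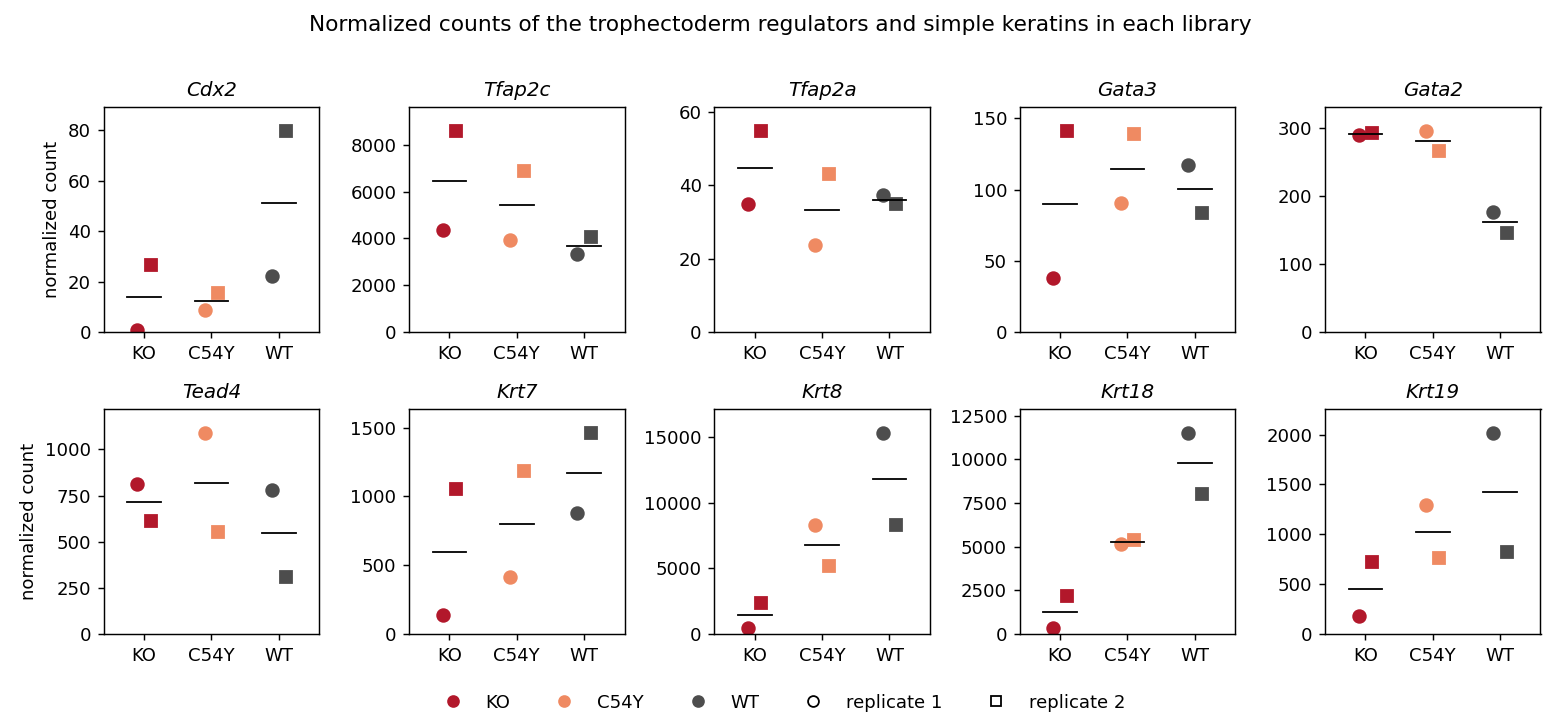
Normalized counts (linear vertical axes) of the 10 genes in KO, C54Y and WT cells, with circles for replicate 1, squares for replicate 2 and a bar at the mean of 2 libraries. Gata2 was higher in all KO and C54Y libraries than in both WT libraries, and Krt8 and Krt18 were lower.

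Tead4 encodes the DNA-binding partner of YAP at the head of the trophectoderm programme. It had 814 and 615 normalized counts in KO libraries (replicate 1, then replicate 2, here and throughout) and 1090 and 551 in C54Y libraries, against 781 and 310 in WT libraries. All groups overlapped, and within each genotype replicate 2 was lower. Its log2 fold change was 0.52 ± 0.23 in KO (± SE, adjusted p = 0.167 by limma) and 0.65 ± 0.23 in C54Y (adjusted p = 0.282 by limma). Within replicate 1 KO differed from WT by 0.06 on the log2 scale and within replicate 2 by 0.98. Without KO replicate 1 the gene was called up (0.90, adjusted p = 0.000668 by limma).

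Cdx2, the homeobox gene that defines trophectoderm fate, was weakly expressed. It had 0.869 and 26.7 normalized counts in KO libraries and 8.84 and 15.6 in C54Y libraries, against 22.4 and 79.8 in WT libraries. Each mutant library lay below the WT library of its replicate number, although KO replicate 2 exceeded WT replicate 1. The KO value of replicate 1 rests on 1 read against 30 in WT, a ratio of 0.0388 with a counting interval of 0.00095 to 0.233. In replicate 2 the ratio was 0.335 (21 reads in KO, 62 in WT, interval 0.194 to 0.557). The C54Y ratios were 0.394 (interval 0.189 to 0.779) and 0.195 (interval 0.0958 to 0.366). These exact 95% intervals cover counting error only. The fitted change was -2.30 ± 0.60 in KO (adjusted p = 0.0334 by limma) and -1.69 ± 0.60 in C54Y (adjusted p = 0.279 by limma). The KO call was lost without KO replicate 1 (-1.25, adjusted p = 0.0957 by limma). In bulk RNA, fewer cells that express a gene and less RNA per cell cannot be told apart.

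Tfap2c was the regulator with the highest level per length, at 1974 normalized counts per kilobase of exon in KO, 1653 in C54Y and 1125 in WT. Its normalized counts were 4349 and 8594 in KO libraries and 3944 and 6891 in C54Y libraries, against 3317 and 4057 in WT libraries. Both KO libraries exceeded both WT libraries, while C54Y replicate 1 lay between the WT libraries. The rise was 0.74 ± 0.18 in KO (adjusted p = 0.0244 by limma), with 0.39 within replicate 1 and 1.08 within replicate 2. C54Y stood at 0.51 ± 0.18 (adjusted p = 0.265 by limma). Leaving out WT replicate 2 ended the KO call (0.43, adjusted p = 0.291 by limma).

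Gata2, a zinc finger factor of trophoblast and of blood progenitors, showed the steadiest difference of the regulators. It had 289 and 291 normalized counts in KO libraries and 295 and 265 in C54Y libraries, against 176 and 145 in WT libraries. Both mutants lay above WT with no overlap. The rise was 0.85 ± 0.23 in KO (adjusted p = 0.0353 by limma), and C54Y stood at 0.80 ± 0.23 (adjusted p = 0.161 by limma). Within replicates the 4 differences from WT ran between 0.71 and 0.99. The KO call was lost with TMM scaling (adjusted p = 0.0535) and in edgeR with the block (adjusted p = 0.0561). It was also lost without WT replicate 1 (adjusted p = 0.0915), WT replicate 2 (0.234), C54Y replicate 1 (0.0685) or C54Y replicate 2 (0.0745), all by limma. Blood and endothelial markers did not move one way. Of 8 tested in KO, Pecam1 rose (1.06 ± 0.16, adjusted p = 0.00401 by limma) and Runx1 (-2.00) and Kdr (-1.80) fell, beside 8.9% up and 7.41% down over all genes. The list of 10 blood and endothelial genes summed to 3352 and 4291 normalized counts in KO and 2830 and 3687 in C54Y, against 2169 and 2188 in WT, most of it Pecam1, with Hbb-y at 0 in 4 of the 6 libraries. The sum thus mostly follows Pecam1, while 5 of the 8 tested markers lay below 0 in KO and 3 above, with a median of -0.44. The part of blood or endothelial cells in the Gata2 result was not tested.

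Gata3, which acts in trophoblast alongside CDX2, had 38.2 and 141 normalized counts in KO libraries and 90.4 and 139 in C54Y libraries, against 117 and 83.6 in WT libraries. In replicate 1 the KO library was the lowest, and in replicate 2 it was above WT. Its log2 fold change was -0.41 in KO (95% interval -1.49 to 0.66) and 0.18 in C54Y (interval -0.90 to 1.25), with adjusted p = 0.603 and 0.942 by limma. Without KO replicate 2 it was called down (-1.30, adjusted p = 0.0171 by limma), and without KO replicate 1 its sign turned (0.47). Tfap2a, the AP-2 gene best known from neural crest and surface ectoderm, was near the lower end of detection. It had 34.7 and 54.7 normalized counts in KO and 23.8 and 42.9 in C54Y, against 37.3 and 34.7 in WT. The groups overlapped, with log2 fold changes of 0.26 in KO (interval -0.57 to 1.10) and -0.16 in C54Y (interval -0.998 to 0.68). The lncRNA gene 4930412O13Rik, which overlaps Gata3, had at most 2.598 normalized counts.

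**Figure D2:**
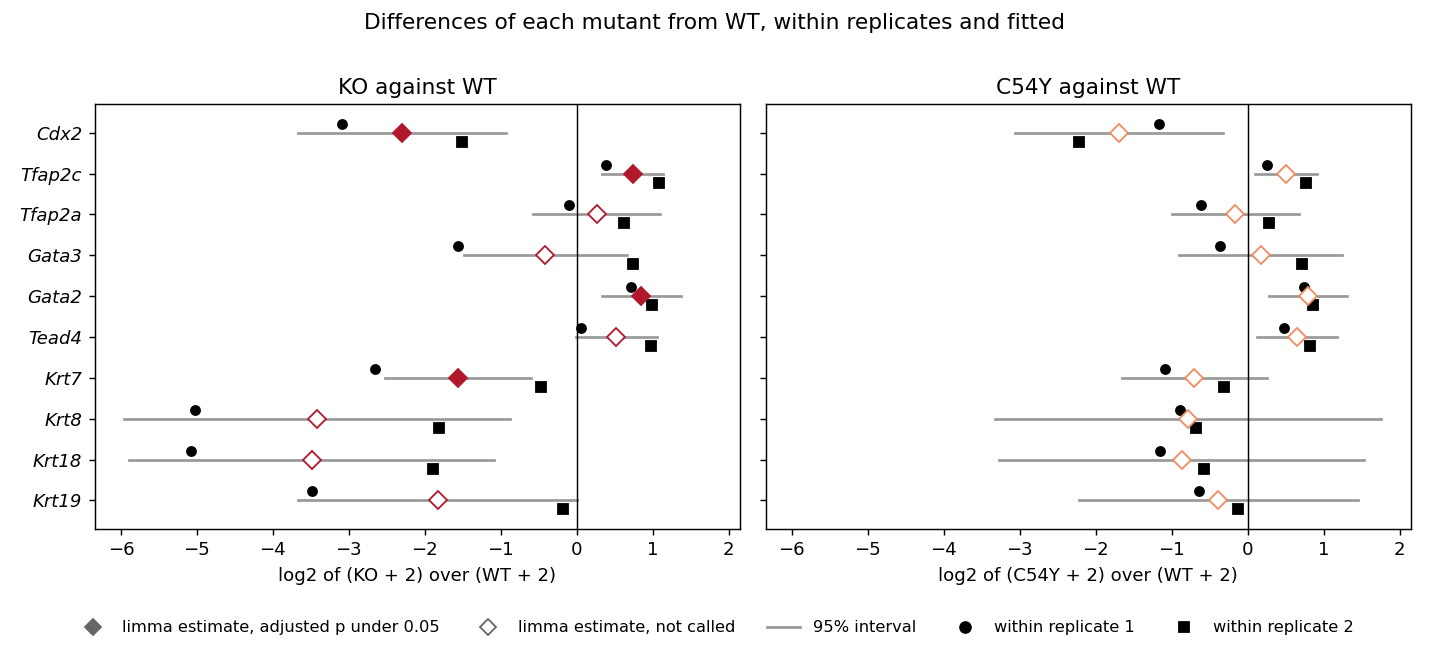
Log2 difference of each mutant from WT for the 10 genes (horizontal axes, KO left and C54Y right). Diamonds are limma estimates with 95% intervals, filled where the adjusted p was under 0.05, and circles and squares are the differences within replicate 1 and replicate 2. For Krt8 and Krt18 the KO differences were about -5.0 and -5.1 in replicate 1 and -1.8 and -1.9 in replicate 2.

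The keratins Krt8 and Krt18 were the most abundant of the 10 genes per length in WT, at 6038 and 6800 normalized counts per kilobase of exon. In KO they averaged 725 and 869 and in C54Y 3445 and 3672. In WT and C54Y the order per length began with Krt18, Krt8, Tfap2c and Krt19, and the libraries of Krt18 and Krt8 overlapped. In WT those of Tfap2c (1012 to 1238) and Krt19 (523 to 1280) overlapped as well. In KO Tfap2c came first, at 1327 to 2622 per library, and overlapped Krt18, at 236 to 1501. Gata2, Gata3, Tfap2a and Cdx2 took the last 4 places in each genotype, at most 80.1 per kilobase in any library. Krt8 and Krt18 are neighbours on chromosome 15 and encode partner proteins of the same filament. The 250 bases before their annotated starts, with those of Krt7 from the same chromosome, are shown because each of these genes averaged less in KO than in WT. The letters are RefSeq sequence of GRCm38.p6, with matches to the searched motifs in capitals. The windows are chr15:102004343-102004592 on the minus strand for Krt8, chr15:102027966-102028215 on the plus strand for Krt18 and chr15:101412153-101412402 on the plus strand for Krt7.
Krt8: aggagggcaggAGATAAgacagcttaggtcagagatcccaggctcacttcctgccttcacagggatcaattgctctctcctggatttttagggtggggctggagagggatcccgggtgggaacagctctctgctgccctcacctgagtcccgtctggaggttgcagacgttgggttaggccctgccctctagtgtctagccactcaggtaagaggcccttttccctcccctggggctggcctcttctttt
Krt18: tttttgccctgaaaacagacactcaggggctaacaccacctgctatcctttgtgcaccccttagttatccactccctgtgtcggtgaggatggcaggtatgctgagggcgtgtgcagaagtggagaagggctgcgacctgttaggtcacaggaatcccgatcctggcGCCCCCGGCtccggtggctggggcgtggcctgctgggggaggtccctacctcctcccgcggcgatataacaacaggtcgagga
Krt7: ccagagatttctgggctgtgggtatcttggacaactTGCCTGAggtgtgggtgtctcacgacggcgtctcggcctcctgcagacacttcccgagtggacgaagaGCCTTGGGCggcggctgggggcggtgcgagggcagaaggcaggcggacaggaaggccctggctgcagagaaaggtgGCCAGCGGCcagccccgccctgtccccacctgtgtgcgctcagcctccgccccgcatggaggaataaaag
Both strands of the window from 250 bases before to 50 after the start were searched. The motifs were TNNGGCA for THAP1, GGAATG for TEAD, GCCNNNGGC for AP-2 and AGATAA for GATA factors. In the Krt8 window the capitals mark a GATA match and in that of Krt18 an AP-2 match. In that of Krt7 they mark a THAP1 match on the opposite strand and, further on, 2 AP-2 matches. Krt7 had a further THAP1 match from base 10 to 16 after the start. The THAP1 letters were not found in the windows of Krt8, Krt18, Cdx2 or Tfap2a, while one window each of Gata2 and Gata3 held them. The Gata3 match overlapped one for AP-2. Of 32851 promoter windows, 40.0% held the THAP1 letters, 14.7% those of TEAD, 16.6% those of AP-2 and 11.2% those of GATA, so single matches are common. Promoters were found for 7 of the 10 genes, and Tfap2c, Tead4 and Krt19 had none in the table.

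Krt8 had 469 and 2371 normalized counts in KO libraries and 8306 and 5184 in C54Y libraries, against 15325 and 8319 in WT libraries. Krt18 had 339 and 2157 in KO libraries and 5178 and 5375 in C54Y libraries, against 11525 and 8018 in WT libraries. For both genes every KO library lay below every C54Y library, and every C54Y library below every WT library. KO reached 0.0306 of the WT level of Krt8 within replicate 1 and 0.285 within replicate 2. For Krt18 the KO shares were 0.0294 and 0.269. C54Y stood at 0.542 and 0.623 of WT for Krt8, and at 0.449 and 0.670 for Krt18. The fitted KO difference was -3.42 ± 0.91 for Krt8 (95% interval -5.96 to -0.88) and -3.49 ± 0.86 for Krt18 (interval -5.89 to -1.09). Neither was called by limma after adjustment. DESeq2 with the block called Krt8 (adjusted p = 0.0387) and Krt18 (adjusted p = 0.0165), and limma called both once KO replicate 1 (-1.86 and -2.04), KO replicate 2 (-4.97 and -4.94) or WT replicate 1 (-2.56 and -2.55) was left out. The C54Y differences were -0.78 (interval -3.32 to 1.76) and -0.87 (interval -3.27 to 1.53), with adjusted p = 0.849 and 0.814 by limma. Limma called both lower in C54Y once KO replicate 1 (adjusted p = 1.2e-06 and 8.92e-05) or KO replicate 2 (2.03e-05 and 0.00066) was left out, which changed the estimate of the spread and not the difference. Without WT replicate 1 the C54Y differences turned to 0.0711 and 0.0758.

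Krt8 and Krt18 followed each other across libraries more closely than they followed other genes. Likeness was the root mean square difference of log2 values over the 6 libraries, each gene centred on its own mean. Among 12438 genes with a mean of at least 50 normalized counts, Krt18 was the nearest to Krt8 and Krt8 the nearest to Krt18, at 0.26 on the log2 scale. Next came Chst1, a carbohydrate sulfotransferase gene, for Krt8 (0.34) and the growth factor gene Igf2 for Krt18 (0.34). The ratio of Krt8 to Krt18 per length was 1.02 and 0.807 in KO libraries and 1.18 and 0.708 in C54Y libraries, against 0.976 and 0.761 in WT libraries. It was higher in replicate 1 in each genotype. Krt19 ranked 17th for Krt8, and Krt7 369th. A pseudogene of Krt8 is annotated by RefSeq, and how reads that match both were counted is not given in the sources used here.

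Krt7, the other type II keratin, had 138 and 1054 normalized counts in KO libraries and 411 and 1182 in C54Y libraries, against 878 and 1462 in WT libraries. KO was lowest and C54Y intermediate within each replicate, but KO replicate 2 exceeded WT replicate 1. The fall was -1.56 ± 0.42 in KO (adjusted p = 0.038 by limma), with -2.65 within replicate 1 and -0.47 within replicate 2. C54Y stood at -0.70 (interval -1.66 to 0.26, adjusted p = 0.595 by limma). The KO call was lost with TMM scaling (adjusted p = 0.051) and in edgeR with the block (adjusted p = 0.0682). By limma it was also lost without WT replicate 1 (-0.82, adjusted p = 0.0845), C54Y replicate 1 (0.238) or C54Y replicate 2 (0.193).

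Krt19, the smallest type I keratin, had 179 and 727 normalized counts in KO libraries and 1289 and 759 in C54Y libraries, against 2017 and 825 in WT libraries. In replicate 1 the KO library stood at 0.0887 of WT, and in replicate 2 at 0.881. The difference of the KO cells was therefore almost all in replicate 1. The fitted value was -1.83 (interval -3.67 to 0.00, adjusted p = 0.161 by limma) in KO and -0.38 (interval -2.22 to 1.45, adjusted p = 0.914 by limma) in C54Y. Without KO replicate 2 the gene was called down (-3.35, adjusted p = 2.58e-10 by limma). The 4 keratins together summed to 1125 and 6309 normalized counts in KO libraries and 15183 and 12501 in C54Y libraries, against 29744 and 18624 in WT libraries. No library of one genotype reached the range of another.

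**Figure D3:**
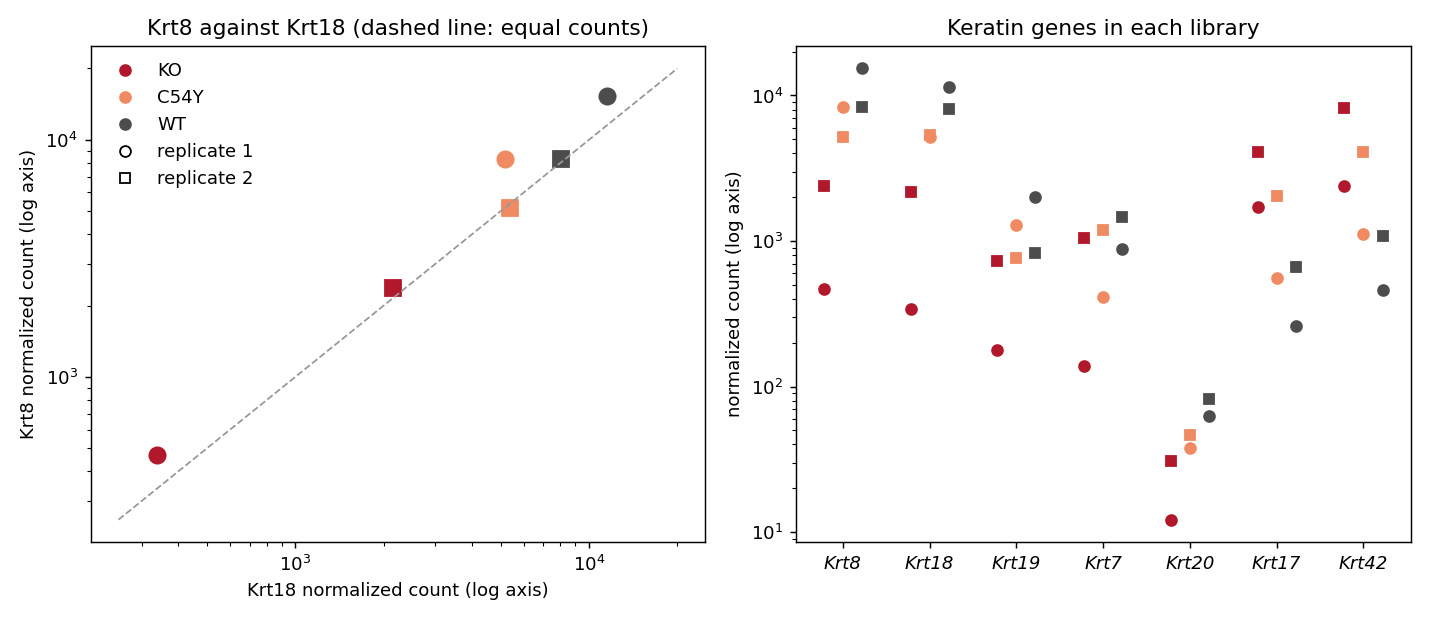
Left, Krt8 against Krt18 normalized counts on log axes in the 6 libraries (color for genotype, circle for replicate 1, square for replicate 2), with a dashed line at equal counts. Right, normalized counts on a log axis of the simple keratins, Krt20, Krt17 and Krt42 by genotype. KO libraries were lowest for Krt8 (469 and 2371) and highest for Krt17 (1703 and 4060) within each replicate.

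Keratins outside the simple epithelial set included some that rose. Krt17, a type I keratin of stratified and appendage epithelia, had 1703 and 4060 normalized counts in KO libraries and 555 and 2030 in C54Y libraries, against 261 and 668 in WT libraries. It rose by 2.65 ± 0.19 in KO (adjusted p = 0.000212 by limma) and by 1.34 ± 0.19 in C54Y (adjusted p = 0.0133 by limma), and was higher in KO than in C54Y (1.31 ± 0.19, adjusted p = 0.0479 by limma). Krt42, a further type I keratin, had 2393 and 8262 in KO libraries and 1123 and 4078 in C54Y libraries, against 460 and 1076 in WT libraries. It rose by 2.66 ± 0.19 in KO and 1.60 ± 0.19 in C54Y (adjusted p = 0.000195 and 0.00492 by limma). Krt20, a keratin of gut and urothelium, fell in KO (-1.78 ± 0.37, adjusted p = 0.0136 by limma). Of 11 tested keratin and intermediate filament genes beyond the 10, Krt17 and Krt42 rose and Krt20, Nes (-1.94) and Des (-1.40) fell in KO, with a median of -0.09. Over all genes tested 1361 rose and 1133 fell in KO and 147 rose and 61 fell in C54Y, with medians near 0 (0.03 in KO). With TMM scaling the KO split turned, at 1090 up and 1343 down, as it did in edgeR with the block (1085 up and 1342 down). The keratins of stratified epithelium Krt5 and Krt14 had at most 7.64 and 54.7 normalized counts. Sequence shared among type I keratins may let reads be assigned to the wrong member.

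The 2 mutants were compared with each other to ask whether the missense change matched the loss of the protein. Of the 10 genes, 0 were called between KO and C54Y by limma, against 0.19% of the genes tested, while 2 (Krt8 and Krt18) had an unadjusted p under 0.05, against 15.4% of the genes tested. The blocked edgeR and DESeq2 fits called 0 as well. KO stood below C54Y by -2.63 for Krt8 (95% interval -5.18 to -0.09) and by -2.62 for Krt18 (interval -5.02 to -0.22), with adjusted p = 0.314 and 0.297 by limma. For Gata2 the difference was 0.05 (interval -0.46 to 0.57) and for Tfap2c 0.23 (interval -0.17 to 0.63). Without WT replicate 1, which leaves KO and C54Y as they are and changes only the estimate of the spread, Krt7, Krt8, Krt18 and Krt19 were called lower in KO, the first at adjusted p = 0.0161. Comparisons of KO and of C54Y with WT share the same WT libraries, so the values of the mutants side by side are not independent. In KO the libraries did not overlap with WT for 5 of the 10 genes (27.2% of all tested), and in C54Y for 4 of the 10 (18.0% of all tested).

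Members also differed between replicate numbers within a genotype. In WT, replicate 2 differed from replicate 1 by -1.33 for Tead4, -1.29 for Krt19 and 1.74 for Cdx2 on the log2 scale. In KO the differences were larger for the keratins, at 2.33 for Krt8, 2.66 for Krt18, 2.01 for Krt19 and 2.91 for Krt7, while in C54Y they were -0.68, 0.05, -0.76 and 1.52. The KO library of replicate 1 was thus the lowest of all 6 for each of the 4 keratins. Fibroblast markers were also lowest there, summing to 3358 normalized counts in KO and 7190 in C54Y, against 7843 in WT, in replicate 1. In replicate 2 the fibroblast sum was 32849 in KO and 34752 in C54Y, against 28598 in WT. There KO held 0.285 of the WT level of Krt8, 0.269 of Krt18, 0.721 of Krt7 and 0.881 of Krt19. Of 18 fibroblast markers tested, 0 rose and Mmp2 (-1.03) fell in KO, beside 8.9% up and 7.41% down over all genes. Below 0 lay 17 of them in KO and 7 in C54Y, and above 0 lay 1 and 11. Their KO median was -0.57 in the fit, -1.38 within replicate 1 and -0.10 within replicate 2. Lum, a defining fibroblast marker, was at 0 in 5 of the 6 libraries. The part of feeder cells in the keratin differences was not tested.

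Further trophoblast genes did not move one way. Over all genes tested, 8.9% rose and 7.41% fell in KO, and 1.36% were called in C54Y. Of 17 tested trophectoderm and trophoblast stem cell genes, 3 rose and 2 fell in KO, and 0 were called in C54Y, with medians of -0.04 and 0.04. Ets2 (0.99 ± 0.19, adjusted p = 0.00997 by limma), a factor of trophoblast stem cells, the Krüppel-like factor gene Klf5 (0.70) and the galectin gene Lgals3 (1.14) rose in KO. The BMP gene Bmp8b (-1.71) and the homeobox gene Msx2 (-1.46) fell. Eomes, needed for trophoblast stem cells, stood at 0.22 in KO and 0.31 in C54Y (adjusted p = 0.605 and 0.728 by limma). Both mutants lay above WT with no overlap for the weakly expressed Elf5. It stood at 1.81 in KO and 2.29 in C54Y (adjusted p = 0.142 and 0.234 by limma). Ascl2 stood at 0.65 and 0.06 and Esx1 at -0.50 and -0.30, and neither was called. Msx2 and Zyx, a focal adhesion gene, were the genes most like Krt7 across libraries, at root mean square differences of 0.22 and 0.23.

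Of 13 tested genes of later trophoblast, 2 rose and 4 fell in KO (16.3% of all genes tested were called), and 2 rose and 2 fell in C54Y (1.36% of all), with medians of -0.69 and -0.21. The placental homeobox genes Rhox6 (1.90 ± 0.22 in KO, 1.62 ± 0.22 in C54Y) and Rhox9 (2.08 and 1.83) rose in both mutants. The imprinted genes Peg10 (-1.05 in KO, -0.83 in C54Y) and Cdkn1c (-0.80 and -1.05) fell in both. Hand1, needed for trophoblast giant cells (-1.87), and Dlx3, a placental homeobox gene (-1.97), fell in KO. Rhox6 and Rhox9 belong to an X-linked family of similar copies that may share reads.

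Among 20 tested TEAD4 partners and Hippo pathway genes, Nf2 rose (0.57) and 7 fell in KO, beside 8.9% up and 7.41% down over all genes. Their median was -0.50 in KO and -0.12 in C54Y, where 0 were called, against 1.36% of all genes. The KO median was -0.71 within replicate 1 and -0.39 within replicate 2. Amot, a scaffold that holds YAP at junctions, had 202 and 106 normalized counts in KO libraries and 866 and 218 in C54Y libraries, against 1599 and 332 in WT libraries (-2.30 ± 0.31 in KO, adjusted p = 0.00237 by limma). Its relatives Amotl1 (-0.79) and Amotl2 (-1.32), the TEAD genes Tead3 (-1.57) and Tead1 (-0.79), the YAP paralog gene Wwtr1 (-0.63) and the YAP target Ctgf (-1.20) also fell. Within replicate 1 and replicate 2 Ctgf stood at -2.00 and -0.40, Amotl2 at -2.10 and -0.53 and Amotl1 at -1.19 and -0.38. Tead2 stood at 0.03 and Yap1 at -0.23 (adjusted p = 0.934 and 0.263 by limma). The genes most like Krt19 across libraries were Ptprm, a receptor tyrosine phosphatase gene (root mean square difference 0.19), and Cyr61, another YAP target (0.20). Cyr61 stood at 767 and 2080 normalized counts in KO libraries and 4610 and 2931 in C54Y libraries, against 7694 and 3593 in WT libraries, and was not called (adjusted p = 0.0562 by limma).

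Among 23 tested genes of epithelial junctions and transport, 10 fell in KO, beside 7.41% of all genes, and Aqp3, a water and glycerol channel, rose (2.30 ± 0.31, adjusted p = 0.00237 by limma), with a median of -0.54. The tight junction genes Cgn (-1.41 ± 0.21, adjusted p = 0.00329 by limma) and Cldn7 (-1.53) and the desmosome gene Pkp2 (-0.78) were among those that fell. In C54Y only Aqp3 was called (1.61, adjusted p = 0.0458 by limma), of the 23, against 1.36% of all genes. Of 9 tested paralogs of the regulators, 0 rose and 5 fell in KO, beside 8.9% up and 7.41% down over all genes, and 2 had values above 0. In C54Y 0 rose and 2 fell, against 1.36% of all genes called. The AP-2 gene Tfap2e (-2.02), Gata4 (-1.98), Gata6 (-2.38), and Tead1 and Tead3, which the Hippo list also holds, fell in KO, and Gata4 (-1.39) and Gata6 (-2.44) in C54Y, with medians of -1.44 and -0.49.

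**Figure D4:**
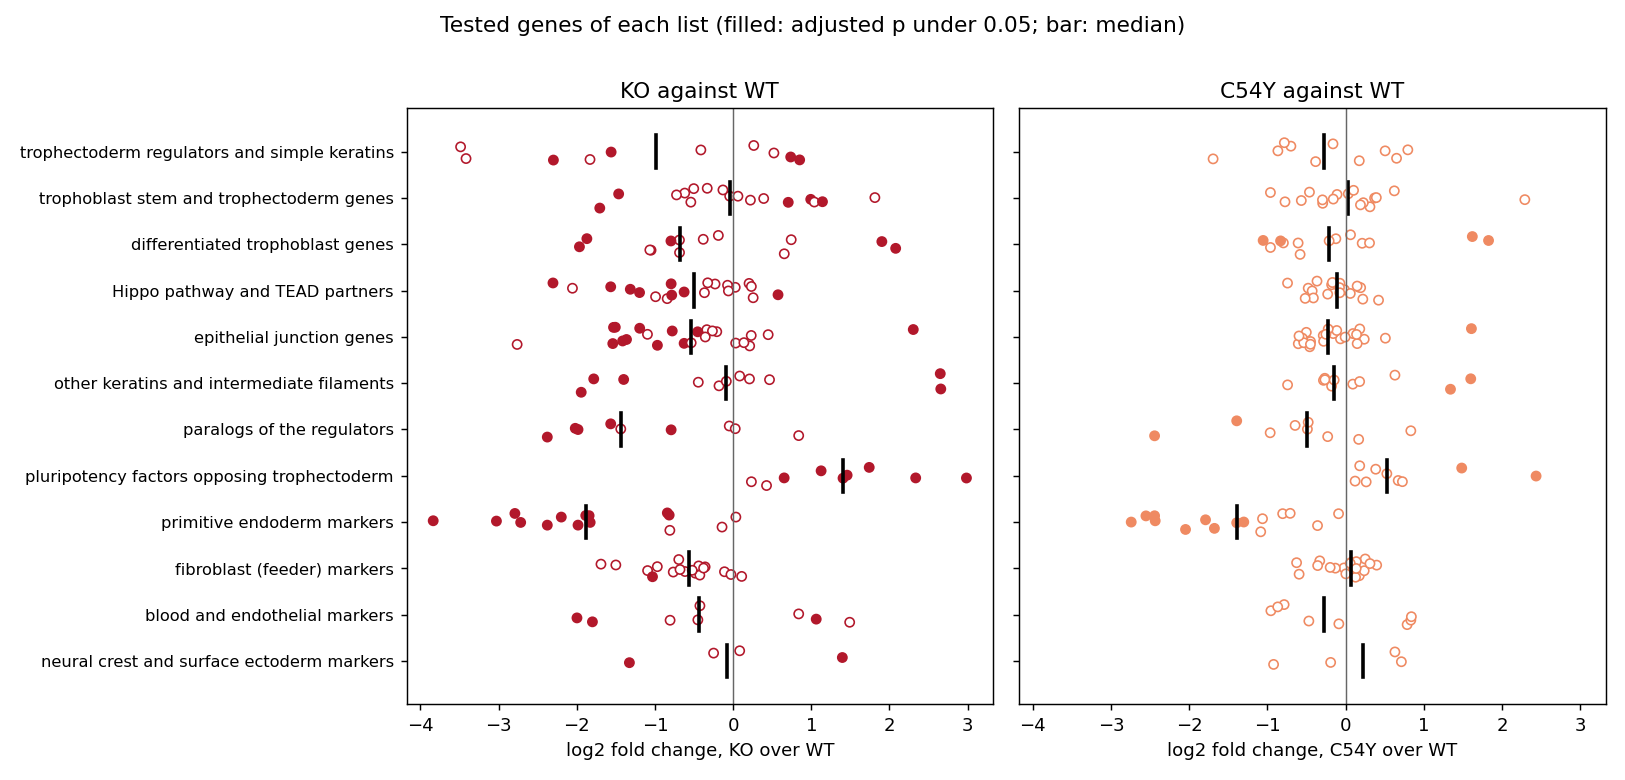
Log2 fold changes of KO (left) and C54Y (right) over WT for the tested genes of each list, 1 point per gene, filled where the adjusted p was under 0.05, with a bar at the list's median. Primitive endoderm markers lay at medians of -1.89 and -1.39 and pluripotency factors at 1.41 and 0.53.

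Primitive endoderm, which also makes simple keratins, was followed by its own markers. Of 15 tested primitive endoderm markers, 0 rose and 12 fell in KO and 0 rose and 9 fell in C54Y, with medians of -1.89 and -1.39. The shares over all genes tested were 8.9% up and 7.41% down in KO and 1.36% called in C54Y. The endocytic receptor gene Cubn fell by 3.84 in KO and by 2.43 in C54Y on the log2 scale, and the endocytic adaptor gene Dab2 fell by 2.79 and 1.79. The laminin gene Lama1 fell by 0.84 and 1.30, and Gata4 and Gata6 are in this list too. The 16 markers summed to 44781 and 42219 normalized counts in KO and 45087 and 39011 in C54Y, against 80184 and 48580 in WT, and the later endoderm marker Afp was at 0 in 3 of the 6 libraries. Within replicate 1, Dab2 stood at -2.93 in KO and -1.83 in C54Y, where Krt8 stood at -5.02 and -0.88. The marker medians of KO were -2.05 in replicate 1 and -1.55 in replicate 2, where Krt8 stood at -5.02 and -1.81. KO and C54Y had similar marker sums and unlike keratin sums, but the sums do not show how single markers moved. Between KO and C54Y, 10 of the 15 tested markers lay lower in KO and 5 higher, with a median of -0.16 and 0 called. Cubn (-1.40) was among the lower and Lama1 (0.46) among the higher. The part of primitive endoderm cells in the keratin differences was not tested. Of 9 pluripotency factors, some known to oppose the trophectoderm programme, 7 rose in KO, among them Zfp42 (2.98), Prdm14 (2.34) and Esrrb (1.13). In C54Y 2 rose, Zfp42 (2.44) and Prdm14 (1.49). Nanog (1.46) and Pou5f1 (0.65) also rose in KO. Neural crest and surface ectoderm markers, the other tissues of Tfap2a, had 4 of 10 genes above the filter, of which Foxd3 rose (1.40) and Sox10 fell (-1.33) in KO.

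The 2 genes most like each regulator with a mean of at least 50 were also listed. For Tfap2c they were Tmem101 and Tmem192 (root mean square difference 0.08 and 0.09), for Gata2 Car12 and Fam78a (0.08 and 0.09), and for Tead4 Ccdc85c and Nid2 (0.09 and 0.11). For Gata3 they were Col5a1, a collagen gene of the fibroblast list (0.19), and Cuedc1 (0.20). Col5a1 stood at 458 and 1656 normalized counts in KO libraries and 1342 and 1594 in C54Y libraries, against 1603 and 1372 in WT libraries. The KO library of replicate 1 was the lowest for Gata3, Col5a1 and Cuedc1.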

How the data were processed

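The authors deposited normalized counts (a signal scaled by library) for 6 libraries of 3 genotypes. Build mm9 and the tools TopHat2 2.1.0, Trimmomatic, CASAVA, DESeq2 and HTSeq appear in the submitters' processing notes. Annotation, strand setting and filters are not given in the sources used here. Dividing each column by the worth of 1 read gave whole reads for 100% of values (tolerance 1e-06). Rn45s took 0.472% to 2.05% of reads.

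Genes with at least 10 normalized counts in at least 2 libraries (15287) were log2-transformed after adding 2 and tested with limma 3.58.1 (R 4.3.3, trend and robust options on), with Benjamini-Hochberg adjustment per comparison. On the recovered reads, edgeR 4.0.16 and DESeq2 1.42.0 called 2427 and 2522 genes in KO with the block, beside 2494 by limma. The replicate number was a block because genotypes were to be compared within it. Deviations from group means correlated at 0.869 to 0.907 between genotypes of the same number, so the numbers pair the samples, although the labels do not say what they mark. The 10 genes and all lists were chosen with earlier results of these data known, so the tests are not independent of them. Named genes were the 10, Thap1, the called gene of each list with the smallest p in each direction and up to 2 more per comparison, defining markers of other cell types, and the 2 most alike per gene. Amotl1, Amotl2, Ctgf, Wwtr1, Dlx3, Cdkn1c, Nes, Nanog, Pou5f1 and the uncalled Eomes, Elf5, Gcm1, Tpbpa, Tead2, Yap1, Krt5 and Krt14 were named after their values were seen. So were the uncalled Ascl2 and Esx1. Exon lengths came from GENCODE M21, and promoters and chromosomes from RefSeq (GRCm38.p6). The fit was tested on simulated data.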

Additional observations from a re-analysis of the deposited data

Results flagged for a closer look

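For Gata3 the difference between KO and WT had opposite directions in the replicates by over 1.5-fold each, at -1.57 in replicate 1 and 0.74 in replicate 2 on the log2 scale. For Cdx2 the difference between KO and C54Y did the same, at -1.92 in replicate 1 and 0.71 in replicate 2, the first resting on 1 read in KO. With 1 library per genotype and replicate number these differences between replicates were not tested.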

How the results depend on the processing

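Of the 10 genes, limma called 4 in KO, 0 in C54Y and 0 between KO and C54Y. In KO the count was 0 with no replicate block (limma and edgeR) and 1 in DESeq2 with no replicate block, against 2 with TMM scaling and 2 in edgeR with the block. Leaving out 1 library gave 2 to 8 in KO (8 without KO replicate 2), 0 to 7 in C54Y (7 without either KO library) and 0 to 5 between the mutants. Over all genes limma called 2494, 208 and 29. Without the pairing (no replicate block) the counts were 0, 0 and 0 by limma and by edgeR, and 235, 28 and 3 by DESeq2. DESeq2 with the block called 479 in C54Y and 453 between the mutants. Leaving out 1 library gave 1749 to 4861, 69 to 1818 and 7 to 2831. A group left with 1 library is assumed to vary like the others, and a higher count there is no sign of robust calls.

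Where a sign turned, the gene was not called by limma in that comparison. Between the mutants Cdx2 stood at 0.0746 in edgeR and 0.17 in DESeq2 with no replicate block, and Gata2 at -0.011 with TMM scaling, -0.0108 in edgeR with the block and -0.0178 without it. With 1 library left out, KO against WT ran from -0.14 to 0.67 for Tfap2a and from -1.30 to 0.47 for Gata3. C54Y against WT ran from -0.57 to 0.25 for Tfap2a, -0.67 to 1.03 for Gata3, -1.44 to 0.0424 for Krt7, -1.64 to 0.0711 for Krt8, -1.81 to 0.0758 for Krt18 and -1.34 to 0.57 for Krt19. KO against C54Y ran from -1.66 to 0.45 for Cdx2, -1.47 to 0.30 for Gata3, -0.0587 to 0.17 for Gata2, -0.51 to 0.24 for Tead4, -1.75 to 0.0312 for Krt7 and -2.97 to 0.0694 for Krt19. The cause was not tested. With at least 50 normalized counts in 2 libraries, Cdx2 and Tfap2a were not tested. Other pseudocounts and filters changed no call among the genes they tested. TMM scaling lowered the median of KO over WT by 0.09. Depth limits Cdx2 and Tfap2a, with at most 62 and 50 reads in any library.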
